A study of Mus musculus with 2 samples.

Results

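The insulin-like growth factor (IGF) system was examined in a pair of murine three-dimensional skin models, and its 10 listed genes were the ligand genes Igf1 and Igf2, the receptor genes Igf1r and Igf2r, and the binding protein genes Igfbp2, Igfbp3, Igfbp4, Igfbp5, Igfbp6 and Igfbp7. They were taken as the probe sets that the platform annotation assigns to exactly 1 symbol, that symbol being a listed one, which gave 1 probe set for each gene, out of 22180 genes with such a probe set in all. No probe set with several symbols named a member. The rule itself uses gene names only.

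One model was built from Itih5 knockout cells and the other from wildtype cells, and the titles of both mark day 7. Both contained epidermal keratinocytes and dermal fibroblasts grown from the skin of adult untreated mice, and the cultures had been passaged repeatedly until they no longer needed a collagen coating. Each model was measured on 1 array, so no value has a replicate error, no p-value was computed, and a difference describes these arrays only. Strain, sex, number of animals and the deleted part of Itih5 are not stated in the labels. Itih5 encodes a heavy chain of the inter-alpha-trypsin inhibitor family, and its own probe set read 30.4 on the knockout array and 29.8 on the wildtype array, below the expression threshold in both, so it does not check the labels.

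Both IGF ligands signal through the receptor tyrosine kinase encoded by Igf1r, which acts through insulin receptor substrates on the PI3K and AKT branch and on the MAP kinase branch. The product of Igf2r binds IGF2 without such signalling and carries it to lysosomes, besides sorting lysosomal enzymes. The binding proteins hold the ligands in the extracellular space, where proteases release them, and several of the binding proteins also act on cells without a ligand. In skin, dermal fibroblasts are a known source of IGF ligand and keratinocytes respond to it by growth.

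Values are array intensities on a linear scale, in which a decimal point missing from the deposited numbers was put back. Differences are given as log2 of the knockout minus log2 of the wildtype intensity. A gene counted as expressed where its value on at least 1 array was 47.9 or more. On the log2 scale this is the median over all probe sets, undecided ones included, of the mean of both arrays. The point was restored for 9 of the 10 members, all of them expressed, while the level of Igf1r was undecided. For 7 members only 1 place of the point was possible on both arrays. Intensities are not compared between genes, because probe sets differ in how brightly they report the same amount of RNA.

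The IGF genes went in both directions. Igfbp7 was past 2-fold upward in the knockout model, and of the 9 members 0 were past 2-fold downward. Of 12395 expressed genes, 3.9% were past 2-fold upward and 3.28% past 2-fold downward. Of the 9 members, 4 read higher and 5 lower in the knockout model, while 54.5% of all expressed genes read higher. The median difference of the members was -0.03, against 0.04 over all expressed genes. The sign of that median turned to 0.25 with Igf1r included at its likeliest place and to 0.62 among the 6 members that reached an intensity of 100. The 2.15 log2 units between the highest and the lowest member were spread over both sides of 0. Of the 9 members, 6 were at least 1.5-fold apart, against 20.1% of expressed genes, with 3 of the 6 higher and 3 lower.

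**Figure D1:**
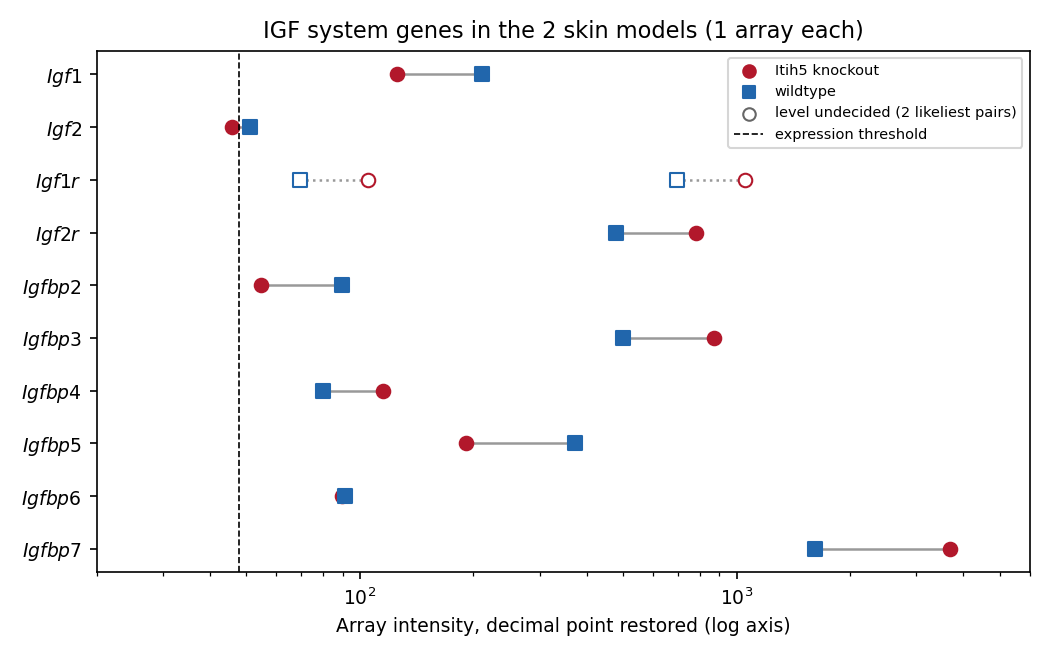
Array intensity (log axis, decimal point restored) of each IGF gene in the Itih5 knockout model (circles) and the wildtype model (squares), 1 array each, with the expression threshold of 47.9 as a dashed line. Igfbp7 has the widest gap of the restored members (3691 against 1615), Igfbp6 the narrowest, and Igf1r is drawn hollow at both of its likeliest pairs of levels because its level is undecided.

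The promoters of the binding protein genes at the ends of this range are shown to set beside these values: Igfbp7 and Igfbp3, with the highest differences, and Igfbp5, with the lowest. Each line gives the 250 bases before the annotated start, 5′ to 3′ on the gene's own strand, from RefSeq on build GRCm38.p6. Igfbp7 lies on the minus strand at chr5:77408046-77408295, Igfbp3 on the minus strand at chr11:7213924-7214173, and Igfbp5 on the minus strand at chr1:72874866-72875115. Capitals mark the GC box GGGCGG on either strand and the TATA-like motif TATANA on the strand shown.
Igfbp7: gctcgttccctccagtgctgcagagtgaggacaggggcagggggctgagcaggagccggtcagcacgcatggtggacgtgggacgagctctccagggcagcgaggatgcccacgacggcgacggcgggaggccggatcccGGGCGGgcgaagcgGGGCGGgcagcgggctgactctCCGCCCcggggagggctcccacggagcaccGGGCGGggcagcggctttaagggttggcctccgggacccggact
Igfbp3: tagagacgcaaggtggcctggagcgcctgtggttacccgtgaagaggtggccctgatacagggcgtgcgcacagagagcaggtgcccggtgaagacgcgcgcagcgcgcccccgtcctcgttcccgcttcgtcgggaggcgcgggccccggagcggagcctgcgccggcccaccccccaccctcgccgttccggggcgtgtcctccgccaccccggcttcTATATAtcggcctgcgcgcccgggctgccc
Igfbp5: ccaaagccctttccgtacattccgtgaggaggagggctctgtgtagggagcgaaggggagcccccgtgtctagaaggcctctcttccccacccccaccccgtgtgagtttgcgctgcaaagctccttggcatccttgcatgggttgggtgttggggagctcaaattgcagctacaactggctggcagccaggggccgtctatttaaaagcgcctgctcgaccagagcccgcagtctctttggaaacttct
The Igfbp7 window held 4 GC boxes and had a GC content of 74.0%. The Igfbp3 window, with a GC content of 73.2%, held 1 TATA-like motif close to its start and no GC box. The Igfbp5 window, at 58.8%, held neither of these letter strings. Over all 32851 windows of the same length, 32.7% held the GC box and 16.4% the TATA-like motif, and the median GC content was 52.4%. The 10 members had 14 windows in the table, of which 6 held a GC box and 3 the TATA-like motif. The string GTAAACA on either strand, the core bound by FoxO factors, was in 0 of the 14 member windows and in 3.17% of all windows. These matches describe letters in a window and were not measured as binding.

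Both ligand genes read lower in the knockout model. Igf1, whose product is the main ligand of the IGF receptor, read 126 on the knockout array and 211 on the wildtype array, 1.68-fold lower (log2 difference -0.75). Of the expressed genes, 5.67% had a lower difference than Igf1. The wildtype value of Igf1 had 2 possible places of the point, and the other one, 21.1, had a probability of 0.171%. At that place Igf1 would read below the 5th percentile of the wildtype array, 21.4, and 5.97-fold higher in the knockout model. Igf2, the fetal growth factor gene expressed from the paternal allele, read 45.9 on the knockout array and 51.2 on the wildtype array. The first of these lies under the expression threshold, so no fold is given. The values of Igf2 were close to that threshold in both models, with 1 possible place each.

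The receptor genes read higher in the knockout model at their likeliest places. Igf2r read 779 on the knockout array and 478 on the wildtype array, 1.63-fold higher (0.71). Its place had a probability of 95.6%, just past the 95% that was asked. At the other place, with a probability of 4.42%, the wildtype model would read 4779 and Igf2r would be 6.13-fold lower in the knockout model. Igf1r was undecided, because the pair of 1053 on the knockout array and 696 on the wildtype array had a probability of 54.0% and the pair of 105 and 69.6 one of 44.0%. Both pairs differ by a shift of both points and so have the same ratio, 1.51-fold higher in the knockout model (0.60), which together had a probability of 0.98. The level of the signalling receptor gene is thus not known here, and its ratio is likelier than its level. It was left out of every count above.

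**Figure D2:**
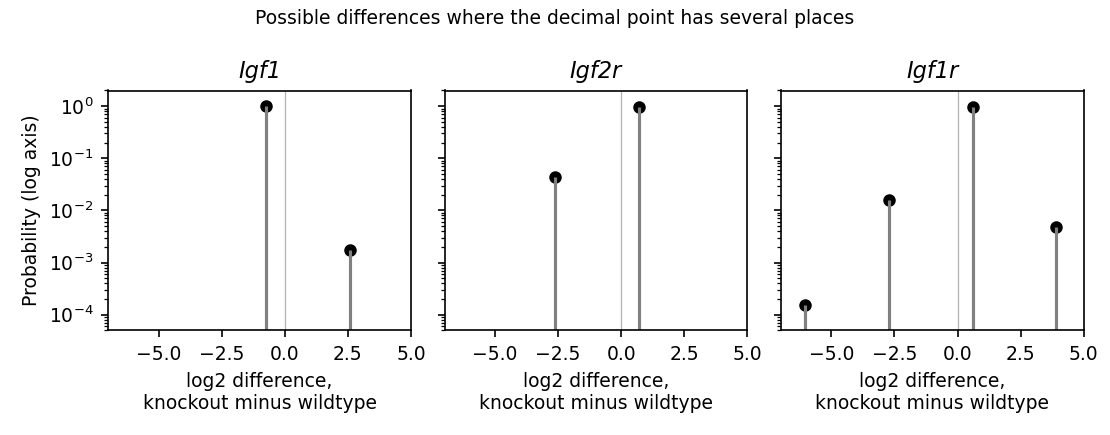
Probability (log axis) of each possible log2 difference, knockout minus wildtype, for the IGF genes with several possible places of the decimal point. The likeliest difference is -0.75 for Igf1, 0.71 for Igf2r and 0.60 for Igf1r, and each gene has at least 1 further value of the opposite sign with a probability under 0.05.

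Of the 6 binding protein genes, 3 read higher and 3 lower in the knockout model, and each had 1 possible place of the point on both arrays. Igfbp7 encodes a matrix-bound relative of the other binding proteins with low affinity for IGF ligands. It read 3691 on the knockout array and 1615 on the wildtype array, 2.29-fold higher (1.19), and 2.41% of expressed genes had a higher difference. Igfbp3, whose product carries most of the ligand in blood and also binds cell surfaces, read 873 on the knockout array and 500.3 on the wildtype array, 1.74-fold higher (0.80). Igfbp4, whose product mostly withholds ligand until the protease PAPP-A cuts it, read 116 and 79.9, 1.45-fold higher (0.53). The order of the higher binding protein genes was therefore Igfbp7, Igfbp3 and Igfbp4, and only the first reached 2-fold.

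Igfbp5, whose product binds matrix and is cut by PAPP-A and its relative PAPP-A2, read 192 on the knockout array and 373 on the wildtype array. This was 1.94-fold lower (-0.96), just short of 2-fold, and 3.53% of expressed genes had a lower difference. With quantile normalization of the arrays the difference was -1.01, and Igfbp5 then counted as at least 2-fold lower. Igfbp2, whose product carries an integrin-binding sequence, read 54.7 on the knockout array and 89.8 on the wildtype array, 1.64-fold lower (-0.72). With a pseudocount of 16 added to both values, its difference was -0.58. Igfbp6, whose product prefers IGF2 over IGF1, read 89.6 and 91.5, a difference of -0.03, close to equal.

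**Figure D3:**
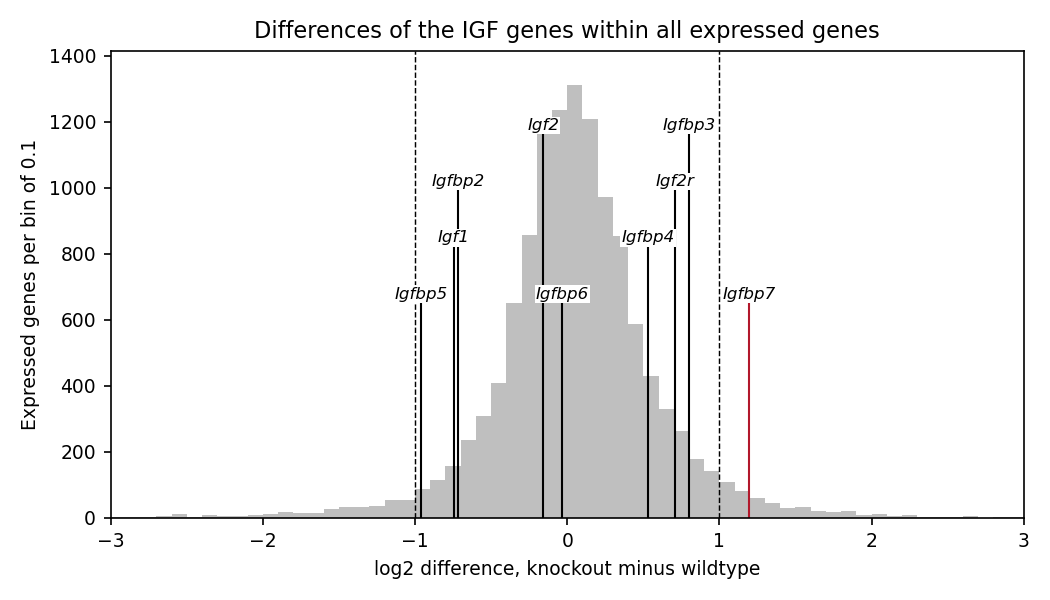
Number of expressed genes (of 12395) in bins of 0.1 of the log2 difference, knockout minus wildtype, with the 9 restored IGF genes marked by vertical lines whose heights carry no value and the 2-fold thresholds dashed; genes beyond the axis are not drawn. Igfbp7 lies past 2-fold on the higher side, while Igfbp5 lies just inside 2-fold on the lower side and Igf2 and Igfbp6 lie near the centre.

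Igfbp2 and Igfbp5 are direct neighbours on chromosome 1 in RefSeq, and both read lower in the knockout model. The gene on the far side of Igfbp2, Rpl37a, read 119 and 105, and the gene on the far side of Igfbp5, Tnp1, was under the threshold in both models. Igfbp3 is the neighbour of Igfbp1 on chromosome 11. Igfbp1, the binding protein gene that liver expresses under control by insulin, read 29.1 on the knockout array and 31.4 on the wildtype array, so it was not expressed by the threshold while Igfbp3 was. On the other side of Igfbp3, Tns3 read 141 against 156. Next to Igfbp4, also on chromosome 11, Tns4, a tensin of epithelia, read 394 against 862, and Top2a on the other side read 215 against 301. The neighbours of Igfbp7, Polr2b and Adgrl3, read 308 against 292 and 104 against 95.3.

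The rest of the pathway was taken as 8 lists with 111 genes that have a probe set of their own, of which 93 were restored and 74 expressed. Of the 74, 7 (9.46%) passed 2-fold upward and 4 (5.41%) downward, beside 3.9% and 3.28% of all expressed genes. Their median difference was 0.22.

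Among 13 further genes named as IGF binding or carrier proteins, 4 were expressed. All 4 read higher, beside 54.5% of all expressed genes, with a median of 0.90. The 4 expressed genes belong to the CCN family of matricellular proteins. Of the rest, 5 were under the threshold, and the points of Ccn3, Crim1, Htra1 and Igfbpl1 were undecided. Ccn4 read 227 on the knockout array and 96.6 on the wildtype array, 2.35-fold higher, and was the 1 gene of this list past 2-fold. Ccn1 read 210.3 against 110, Ccn2, the connective tissue growth factor gene, 201 against 110, and Ccn5 90.9 against 76.4. Igfals, which encodes the acid-labile subunit of the circulating IGF complex, was under the threshold in both models, with 40.4 and 38.7.

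Genes for proteases that cut binding proteins, and for their inhibitors, held the widest difference of the 8 lists, that of Stc1. Of 10 expressed ones, 3 passed 2-fold upward and 1 downward, beside 3.9% and 3.28% of all expressed genes, and the median was 0.53. Stc1, which encodes the PAPP-A inhibitor stanniocalcin 1, read 379 on the knockout array and 71.5 on the wildtype array, 5.29-fold higher. The target of that inhibitor, Pappa, read 772 against 543, which is under 2-fold. Pappa2 read 188 against 92.4, 2.03-fold higher, and the gelatinase gene Mmp9 read 197 against 64.6, 3.05-fold higher. Stc2, another gene of this list, read 130 against 86.1. Pappa, Pappa2, Stc1, Stc2 and the substrate gene Igfbp4 thus read higher, while the substrate gene Igfbp5 read lower. Adam28, a membrane protease gene, read 60.0 against 163, 2.72-fold lower. Mmp2, under 2-fold, read 11734 against 7959, the lysosomal protease gene Ctsd read 4891 against 4064, and Plat, the tissue plasminogen activator gene, read lower with 372 against 463. The points of 5 members of this list were undecided, among them Adam12, Htra1 and Plau.

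Among signalling genes below the receptor, the shares past 2-fold were near the background, since 92.8% of all expressed genes were under 2-fold. Of 14 expressed insulin receptor family and adaptor genes, 13 were under 2-fold and 5 (35.7%) were at least 1.5-fold apart, beside 20.1% of all expressed genes, and the median was 0.12. Gab1, a docking protein gene, was 2.16-fold lower, with 212 against 457. Irs1, the first of the receptor's substrates, read 240.4 against 139 (0.79), and Irs2 read 362 against 346 (0.07). Grb10, an adaptor gene whose product restrains the insulin and IGF receptors, read 427 against 224 (0.93). The adaptor gene Shc1 read 609 against 399 (0.61) and the feedback inhibitor gene Socs3 147 against 97.0 (0.60). Insr, the insulin receptor gene, read 306 against 282, the phosphatase gene Ptpn11 817 against 699, and Socs2 1027 against 957.

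Of 17 expressed genes of the PI3K and AKT branch, 16 were under 2-fold and 2 (11.8%) at least 1.5-fold apart, with a median of 0.13. Pik3cb, a catalytic subunit gene, was the exception at 2.57-fold lower, with 321 against 825, while the other catalytic subunit gene Pik3ca read 864 against 828. The kinase gene Akt1 read 788 against 626. The translation repressor gene Eif4ebp1 read 1978 against 1511, the kinase gene Gsk3b 1416 against 1496, and the GTPase gene Rheb 1050.2 against 984. Of 13 expressed genes that FoxO factors activate, 12 were under 2-fold and 5 (38.5%) at least 1.5-fold apart, and the median was 0.07. Bcl6, a transcriptional repressor gene, was 2.03-fold lower, with 184 against 374. Ccng2, the cyclin G2 gene, read 301 against 560.0, Sod2 read 5562 against 3513, and Txnip read 420.1 against 405, so the list had members on both sides of 0.

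Of 5 expressed imprinted or IGF2 mRNA-binding genes, Peg3, an imprinted zinc finger gene, was 3.33-fold higher, with 176 against 52.8, and the list's median was -0.16. Airn, the antisense transcript of the Igf2r locus, read 53.9 on the knockout array and 60.3 on the wildtype array, both close to the threshold. Igf2bp3, an IGF2 mRNA-binding protein gene, read 71.1 against 87.8, and the imprinted cell cycle inhibitor gene Cdkn1c read 59.0 against 49.9. Plagl1, another imprinted zinc finger gene, read 43.3 against 64.3, under the threshold in the knockout model. Igf2os, antisense to Igf2, was under the threshold in both models. Whether probes of Airn and Igf2r tell the strands apart is not stated in the labels.

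Of 10 expressed genes for matrix partners and cell surface receptors of the binding proteins, 2 passed 2-fold upward and 0 downward. They were Fn1, the fibronectin gene (2910 against 712), and Tnc, the tenascin C gene (5314 against 1550). Over all expressed genes, 3.9% passed 2-fold upward and 3.28% downward. The median of the list was 0.55, against 0.04 over all expressed genes. Lrp1, an endocytic receptor gene whose product binds IGFBP3, read 3114 against 1577 (0.98). The integrin genes Itgav (1087 against 785) and Itgb1 (1207 against 878) read higher, and Tgfb2 (246 against 285) lower, all under 2-fold. Of 3 expressed growth hormone axis genes none reached 2-fold, with Stat5a at 181 against 118, Stat5b at 173 against 189, and Gh near the threshold at 49.3 against 46.9. The point of Ghr, the growth hormone receptor gene, was undecided.

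**Figure D4:**
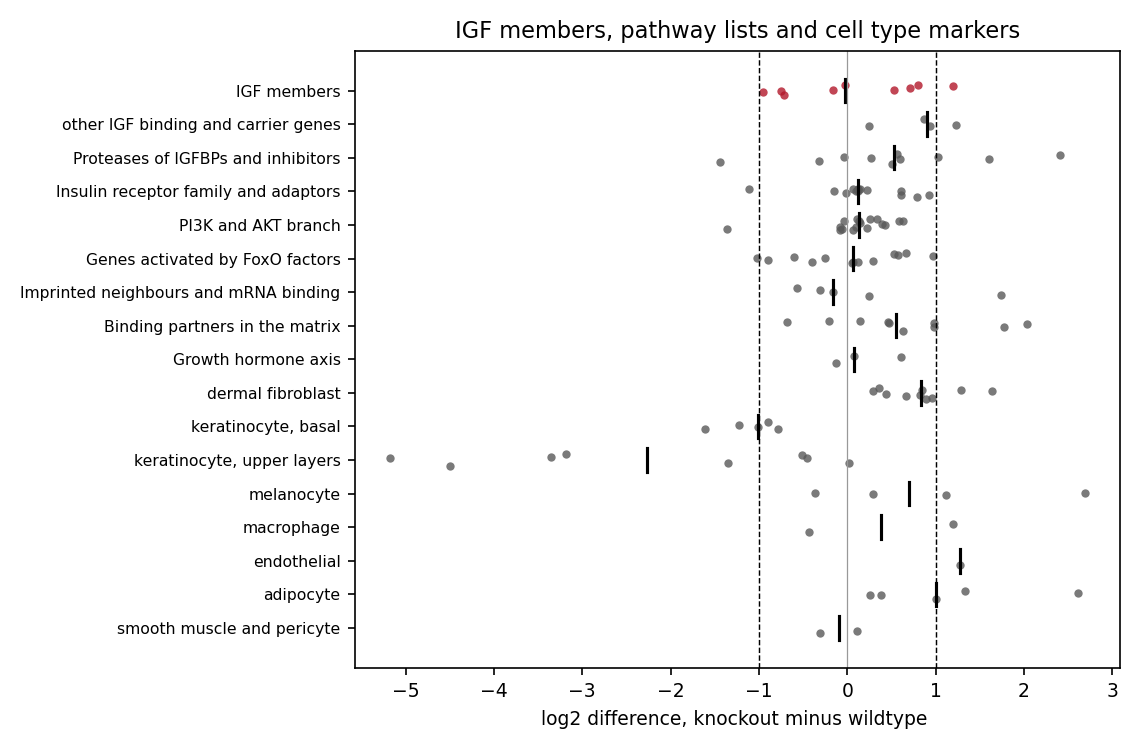
Log2 difference, knockout minus wildtype, of each expressed gene (points) and the median (bars) for the IGF genes, the 8 pathway lists and 8 lists of cell type markers, with the 2-fold thresholds dashed. The points of the IGF genes lie on both sides of 0 around a median of -0.03, whereas the dermal fibroblast points are all above 0 and the basal keratinocyte points all below.

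Markers of the cell types in the models differed as well, and these values stand beside every difference above. All 10 expressed dermal fibroblast markers of the list's 13 had a higher value in the knockout model, beside 54.5% of all expressed genes. The median of these markers was 0.83, and their summed intensity was 18067 against 10913. Of these, Col1a1 (2.45-fold) and Twist2 (3.10-fold) passed 2-fold. All 5 expressed basal keratinocyte markers of 8 read lower, with a median of -1.01 and a sum of 7731 against 18882, and Dsg3 (3.06-fold), Krt14 (2.34-fold) and Krt15 (2.01-fold) passed 2-fold. Of 8 expressed upper-layer keratinocyte markers, 7 read lower, with a median of -2.27 and a sum of 1115 against 16213. Klk14 gave most of that wildtype sum, and without it the sums were 808 against 5092. The genes of that list past 2-fold were Klk14, Krt13, Dsg1a, Lor and Krt10, from 36.2-fold to 2.55-fold lower. The higher members Igfbp7, Igfbp3, Igf2r and Igfbp4 had the sign of the fibroblast markers. Igf1, Igfbp2 and Igfbp5, as well as Igf2 and Igfbp6 with their small differences, had the sign of the basal keratinocyte markers. Any gene that differs between the arrays has the sign of either list, so this sorting carries no information on cell types. The part of these markers in the IGF differences was not tested. In bulk RNA, fewer cells of a type and less RNA per cell cannot be told apart.

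Other cell types were represented by few markers. Of the endothelial list only Kdr was expressed, with 87.4 against 36.1, while Pecam1, Cdh5, Tek and Emcn were under the threshold in both models. Of 6 macrophage markers Cd14 and Cd68 were expressed (551 against 240.2 and 861 against 1161), Csf1r, Adgre1 and Itgam were not, and Ptprc was undecided. All 5 expressed adipocyte markers of 6 read higher, beside 54.5% of all expressed genes. Their sum was 5719 against 1339, most of it from Fabp4 (4974 against 816), and the sums without it were 745 against 523. Cd36 and Lpl read 83.9 against 33.5 and 84.7 against 42.3, under the threshold in the wildtype model, and Adipoq was under it in both. Of 4 expressed melanocyte markers 3 read higher, among them Mlana (6.45-fold) and Mitf (2.16-fold), and Sox10 read lower with 51.3 against 66.4. The 4 summed to 1290 against 447, and without Mlana the sums were 585 against 337. Tyr, Tyrp1 and Dct were under the threshold. The smooth muscle and pericyte markers Myh11 and Des summed to 108 against 113. The part of any of these in the IGF differences was not tested.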

How the data were processed

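Total RNA of the 2 models was amplified to sense-strand cDNA and biotin-labelled for Affymetrix whole-transcript arrays, per the labels. The deposited values are probe set intensities that lack the decimal point in 67457 of 67586 cases. Which software summarised and normalized the probe sets is not stated in the labels. The point was restored (Python 3.11.15, numpy 2.4.6). A place was possible if it gave a number between 18 and 20000 that is the shortest form of a single-precision number and 2 to a single-precision power. Pairs of places were weighed by the joint distribution of mean level and absolute difference over all probe sets (25 rounds of expectation maximisation), allowing for the spacing of single-precision exponents. A pair was kept from a probability of 0.95 upward, which restored 31820 of 33793 probe sets, with 55.0 misplacements to be expected among them. On both arrays 1 place was possible for 20952 probe sets. The steps were tested on simulated data. Levels and most differences in those data were drawn, independently of each other, from the probe sets restored here. The test therefore cannot show how well the method does where its own restoration was wrong or undecided.

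Column medians over the restored probe sets, 46.2 for knockout and 46.6 for wildtype, were close, so no normalization was added. The 5th percentiles, 21.4 in both, mark the low end of the restored intensities. The background was not measured, and genes counted as not expressed read up to the threshold of 47.9. Probe sets with 1 symbol numbered 23521 in the platform annotation. A gene with several probe sets was represented by the brightest on average. Members, lists, the allowed range and the thresholds were chosen with earlier results of these data known. All 10 members are named. Of each list, expressed genes at least 2-fold apart are named; of each pathway list, up to 4 of the highest mean under 2-fold are named too. Other named genes were chosen after their values were seen. Alternatives changed the probability, the places allowed, normalization, pseudocount, filter, probe set rule and fold.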

Additional observations from a re-analysis of the deposited data

How the results depend on the processing

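Igfbp7 was at least 2-fold higher under each of the 11 alternatives except a threshold of 3-fold, at which 0 members were higher. A threshold of 1.5-fold gave 3 higher members (Igf2r, Igfbp3 and Igfbp7) and 3 lower ones (Igf1, Igfbp2 and Igfbp5), by construction. Quantile normalization gave 1 lower member, Igfbp5 at -1.01. The median of the members, -0.03, was 0.25 when undecided probe sets were taken at their likeliest place, since Igf1r then entered, and 0.62 among the 6 members that reached an intensity of 100, so its sign rests on which members are counted. Of 75 differences of single members under the alternatives, 74 stayed within 0.1 and 1 moved, that of Igfbp2 with the pseudocount (-0.58), and 0 changed sign. Most of these were fixed in advance, because only quantile normalization, median centring and the pseudocount alter a member's value. The other settings choose which genes are counted, and each member has 1 probe set. No alternative took the less likely places of Igf1 and Igf2r, at which their signs would turn. The count of pathway genes at least 2-fold apart, 11, was 18 with undecided probe sets included, 28 at 1.5-fold and 5 at 3-fold. No paired analysis was possible because there was 1 array of each genotype, and leaving out an array would end the comparison. The number of arrays limits the precision. Differences of values near the background can be compressed, which was not tested here.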
